A study of Mus musculus with 8 samples.

Results

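The 52 genes described here code for splicing factors and heterogeneous nuclear ribonucleoproteins (hnRNPs) measured in mouse pancreas with and without lamin A/C. They were taken by name from the 22180 genes of the arrays: any gene called Srsf, Hnrnp, Sf3a or Sf3b, Prpf or U2af with its number or letter, pseudogenes left out. The rule that chose them reads names, and where a gene had several rows it took the row of highest mean over all arrays. The set was chosen with earlier results of these data known. The 52 were 3 U2AF subunits, 9 SF3A and SF3B subunits, 12 PRPF proteins, 10 SR proteins and 18 hnRNPs. Array rows naming several genes were not used, which left Hnrnpa1 and Hnrnph3 not analysed here.

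The study measured total RNA of pancreas from C57 BL6 mice on whole-transcript arrays, 6 days after tamoxifen. Both groups received tamoxifen by intraperitoneal injection, at 3 mg per 40 g of body weight. The control group carries the genotype label LmnaWT (called WT, 4 arrays), the other group LmnaKO (called KO, 4 arrays), and each held 3 males and 1 female, the female being replicate 4. The series title places the ablation in acinar cells, the enzyme-secreting cells of the exocrine pancreas; the Cre driver, any alleles that the controls share and the age of the animals are not stated in the sources used here. Values are log2 expression, always listed in the order of replicates 1 to 4, and a change is the log2 difference KO minus WT ± its standard error. A gene was called when its limma p, adjusted by Benjamini-Hochberg over all 22180 genes, was under 0.05. The labels do not say more on how the samples were taken, so a p-value here measures only the spread among the samples, and the number of arrays limits the precision.

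Introns are removed by the spliceosome. U2AF reads the end of the intron, the SF3A and SF3B complexes of the U2 particle clamp the branch point, and many PRPF proteins belong to the tri-snRNP or to the steps that activate and remodel it. SR proteins mostly bind exons and favour their inclusion, while hnRNPs coat nascent transcripts and often favour skipping. Acinar cells depend on this machinery for the spliced messages of their digestive enzymes. Several SR protein genes adjust their own output through exons that send the message to decay, and an array row does not tell such isoforms apart.

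Lmna itself did not separate the groups: its row read 2.54, 3.13, 2.67 and 2.88 in WT and 2.33, 2.58, 2.73 and 2.61 in KO (change -0.24 ± 0.15, limma adjusted p = 0.264). The row is dim, and the position of its probes and the background are not stated in the sources used here, so the targeted gene left the genotype labels unchecked. The mean over the 52 splicing genes was 5.58, 5.32, 5.51 and 5.54 in WT and 6.01, 5.94, 6.01 and 6.03 in KO. WT 2 stood apart from the other controls: it was the lowest of the 8 arrays in 27 of the 52 genes, beside 21.2% of all genes. Without WT 2, 21 of the 52 were called higher, within the 17 to 30 seen when any 1 array was left out.

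In KO pancreas 28 of the 52 genes were higher and 0 were lower (0 also at an unadjusted p under 0.05), while 14.6% of all genes were called higher and 6.99% lower (limma). KO and WT did not overlap, KO above, in 31 of 52, beside 15.3% of all genes. The change was above 0 in 49 of 52, with a median of 0.53 against -0.06 over all genes and 0.393 when each gene is given the median of all genes of its own level band. The rise was seen in 12 of 18 hnRNPs, 8 of 12 PRPF proteins, 5 of 9 SF3A and SF3B subunits, 2 of 10 SR proteins and 1 of 3 U2AF subunits. Most of these calls depended on how the arrays were put on a common scale: after quantile renormalization (a second quantile normalization of the deposited values) 6 of 52 were higher, beside 5.54% of all genes, and after cyclic loess 5 were higher (9.62%) and 1 lower (1.92%), beside 6.86% and 5.31%. Prpf6, Prpf38b and Hnrnpul2 were called in each alternative run. The count was 17 without KO 4, 19 to 30 without any other array and 7 among males only (3 against 3), where 3.47% of all genes were called higher.

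**Figure D1:**
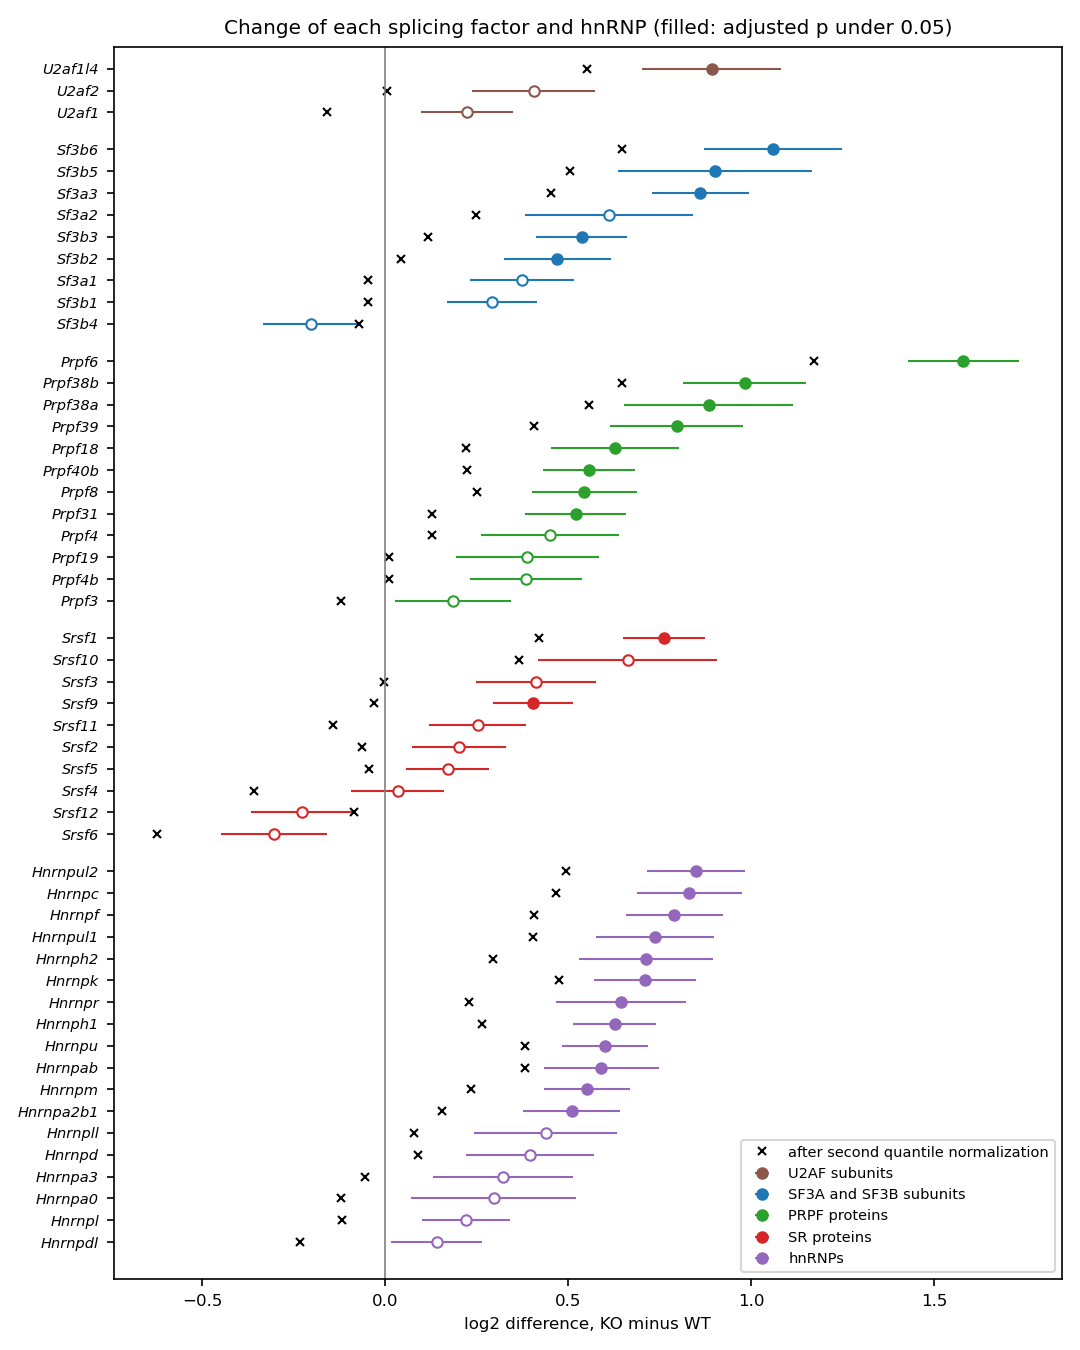
The log2 difference KO minus WT of each of the 52 genes by family, with its standard error (n = 4 per group); filled points passed an adjusted p of 0.05 and crosses give the same difference after quantile renormalization. All points but Sf3b4, Srsf12 and Srsf6 lie above 0 as deposited, and after it 35 of the 52 crosses do.

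The bases before the start site of 4 of these genes are shown, because Prpf6 and Prpf38b kept their call in each alternative, Srsf1 was the SR protein of largest change and Srsf6 was the one whose change, not called as deposited, ran lowest. They are the 150 bases before the start, 5′ to 3′ on the gene's strand, from RefSeq on GRCm38.p6; capitals mark a GC box (GGGCGG) or a CCAAT box on either strand.
Prpf6, chr2:181601169-181601318, plus strand: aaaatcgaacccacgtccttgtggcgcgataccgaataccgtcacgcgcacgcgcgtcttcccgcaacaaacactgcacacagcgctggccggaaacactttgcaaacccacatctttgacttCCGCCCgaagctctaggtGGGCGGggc
Prpf38b, chr3:108911730-108911879, minus strand: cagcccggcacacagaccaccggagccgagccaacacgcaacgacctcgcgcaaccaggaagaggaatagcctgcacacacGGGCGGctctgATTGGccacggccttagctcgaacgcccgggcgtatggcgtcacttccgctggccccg
Srsf1, chr11:88047223-88047372, plus strand: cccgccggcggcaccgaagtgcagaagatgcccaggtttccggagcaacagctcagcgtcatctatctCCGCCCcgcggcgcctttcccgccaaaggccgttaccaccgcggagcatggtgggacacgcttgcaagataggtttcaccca
Srsf6, chr2:162931358-162931507, plus strand: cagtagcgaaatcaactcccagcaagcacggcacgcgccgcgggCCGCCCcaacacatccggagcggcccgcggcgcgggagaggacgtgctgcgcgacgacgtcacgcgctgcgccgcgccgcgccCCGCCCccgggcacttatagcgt
Each stretch held at least 1 GC box, and that of Prpf38b also held a CCAAT box. The stretch of Srsf6 held 28 CpG dinucleotides, against 17 in those of Prpf6 and Prpf38b and 15 in that of Srsf1.

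Over full windows of 250 bases before to 50 after a start, 46 of the 52 genes matched, with 63 windows, some of them overlapping windows of 1 gene. The median window held 27 CpG dinucleotides, against 13 in the 20611 windows of all tested genes. The ETS core CCGGAAG was in 31.7% of the splicing windows and 11.4% of all, and the GC box in 68.3% and 46.5%, searched on both strands. CCAAT was in 52.4% of the splicing windows and 37.7% of all. In windows of genes called higher CCAAT was in 63.9% (23 of 36), against 37% of the windows of genes not called (10 of 27). The ETS core ran the other way, at 25% and 40.7%, as did the GC box, at 61.1% and 77.8%, and the median CpG count, at 25 and 38. The E-box CACGTG was in 14.3% of the splicing windows (8.07% of all) and TATAAA in 7.94% (12.3% of all). The letters TGATGCAA, a composite element read by ATF4 and CHOP partners, were in 0 of 63 windows and in 0.767% of all. Windows that hold GC-rich letters can match several of these motifs, and a match is a description of the letters only.

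Splicing starts with recognition of the intron, and among the U2AF subunits U2af1l4 rose. U2af1l4, a paralogue of the small subunit, read 3.91, 3.98, 3.45 and 3.45 in WT and 4.90, 4.19, 4.71 and 4.56 in KO. The KO arrays all lay above the WT arrays, KO 2 being the nearest to them. The change was 0.89 ± 0.19, adjusted p = 0.0121 (limma), and its call did not survive quantile renormalization (0.55), cyclic loess (0.59) or taking the mean of its 2 rows (0.30), the second of which was dim. U2af2, the large subunit that binds the polypyrimidine tract, read 4.82, 4.22, 4.53 and 5.01 in WT and 4.97, 5.11, 5.08 and 5.03 in KO. U2af1, the small subunit that contacts the AG at the end of the intron, read 6.11, 6.21, 6.22 and 6.36 in WT and 6.35, 6.39, 6.71 and 6.34 in KO. WT and KO overlapped in both, and neither change passed (0.40 ± 0.17 and 0.22 ± 0.13, limma adjusted p = 0.106 and 0.209). The high value of KO 3 sets it apart from the other KO arrays for U2af1.

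Among the SF3A and SF3B subunits, which make up much of the U2 particle, the largest rise was that of Sf3b6, the subunit that sits at the branch-point adenosine. Sf3b6 read 5.53, 4.69, 5.05 and 4.88 in WT and 6.17, 5.80, 6.16 and 6.26 in KO, so that KO lay above WT, with WT 1 the highest of the controls. It changed by 1.06 ± 0.19, adjusted p = 0.00634 (limma), by 0.65 after quantile renormalization and by 0.65 after cyclic loess, and lost its call among males only (0.95). Sf3a3, a subunit of SF3A, was also higher, at 4.13, 4.19, 4.16 and 4.49 in WT and 5.32, 5.04, 4.95 and 5.09 in KO. The groups were well apart in it, at 0.86 ± 0.13, adjusted p = 0.00377, though the call was lost after both rescalings (0.45 and 0.49).

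The small SF3B subunit Sf3b5 read 4.70, 3.88, 4.90 and 4.50 in WT and 5.53, 4.81, 5.90 and 5.34 in KO. KO 2 lay below WT 3, so the groups overlapped, and the change was 0.90 ± 0.27, adjusted p = 0.0382 (limma). Sf3b3, a large propeller-shaped subunit, read 5.48, 5.58, 5.64 and 5.88 in WT and 6.04, 6.16, 6.27 and 6.25 in KO. Sf3b2, a subunit that contacts RNA at the branch site, read 5.54, 5.17, 5.65 and 5.68 in WT and 6.04, 5.88, 6.17 and 5.84 in KO. KO was above WT in both, by 0.54 ± 0.12, adjusted p = 0.0162 and by 0.47 ± 0.15, adjusted p = 0.046. Calls of single subunits were often lost when 1 array was left out, a fit that also has fewer arrays. Sf3b5 lost its call without any 1 of WT 2, WT 4, KO 1, KO 3 and KO 4 (0.70 to 0.92), Sf3b3 without KO 4 (0.51), and Sf3b2 without any 1 of the 8 arrays (0.36 to 0.53). After quantile renormalization Sf3b5 changed by 0.51, Sf3b3 by 0.12 and Sf3b2 by 0.04, with no call. Over the family the count of 5 was 3 without WT 2, WT 4, KO 1 or KO 3 and 2 without KO 4, and 3 with sex as a term.

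Of the subunits not called, Sf3b1, the scaffold that grips the branch helix, read 7.05, 6.70, 6.75 and 6.70 in WT and 6.95, 7.11, 7.13 and 7.17 in KO. WT 1 stood above the other controls and overlapped the KO arrays; the change was 0.29 ± 0.12, adjusted p = 0.11, and without WT 1 it passed (0.37, adjusted p = 0.0396, limma; 0.0396 to 0.824 over the alternatives). Sf3a1, the SF3A subunit that also contacts the U1 particle, read 4.78, 4.61, 5.13 and 5.04 in WT and 5.43, 5.26, 5.18 and 5.16 in KO. Sf3a2, given in full after its values were seen, read 4.72, 3.65, 4.41 and 4.71 in WT and 5.02, 4.74, 5.01 and 5.15 in KO, with WT 2 low. The KO arrays of both lay just above WT, and neither passed (0.37 ± 0.14, adjusted p = 0.0859, and 0.61 ± 0.23, adjusted p = 0.0812). With the replicate number as a block, Sf3a2 passed (adjusted p = 0.032, limma; 0.032 to 0.504 over the alternatives). Sf3b4 read at most 1.67 on any array and changed by -0.20 ± 0.13, adjusted p = 0.264; the background of the arrays is not given, so whether this row measured the transcript was not tested.

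Among PRPF proteins the change of Prpf6 was the largest of the 52. Prpf6 bridges the U5 and U4/U6 particles in the tri-snRNP. It read 4.90, 4.63, 4.72 and 4.94 in WT and 6.70, 6.06, 6.34 and 6.40 in KO. All 4 KO arrays lay more than 1 log2 unit above the highest control. The change was 1.58 ± 0.15, adjusted p = 0.000889 (limma), a 2.99-fold rise, and 1.17 under quantile renormalization and also under cyclic loess.

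Prpf38b, a relative of the activation factor Prpf38a, read 3.75, 3.76, 3.71 and 3.73 in WT and 4.27, 4.88, 4.64 and 5.09 in KO. The WT arrays were nearly level and every KO array was above them, KO 1 least. It changed by 0.98 ± 0.17, adjusted p = 0.00543, and by 0.65 and 0.67 after the rescalings. Prpf38a itself, which joins the spliceosome as it is activated, read 4.19, 3.40, 3.40 and 4.24 in WT and 4.93, 4.37, 4.62 and 4.86 in KO. WT 2 and WT 3 were low and WT 4 came near KO 2, and the change was 0.88 ± 0.23, adjusted p = 0.0254 (limma). Prpf39, a protein associated with the U1 particle, read 6.29, 5.43, 6.04 and 6.02 in WT and 6.94, 6.70, 6.57 and 6.77 in KO, apart between groups with WT 2 low, for a change of 0.80 ± 0.18, adjusted p = 0.0159.

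Prpf18, a factor of the second catalytic step, read 4.997, 4.33, 4.39 and 4.44 in WT and 5.37, 4.88, 5.25 and 5.16 in KO. WT 1 lay above KO 2 and far above the other controls, and the change was 0.63 ± 0.17, adjusted p = 0.0321 (limma). Prpf40b, whose family links the U1 particle with the branch-point proteins, read 3.94, 3.88, 3.80 and 3.60 in WT and 4.53, 4.21, 4.42 and 4.28 in KO, with no overlap and a change of 0.56 ± 0.13, adjusted p = 0.0154. Prpf8, the large U5 protein at the heart of the catalytic centre, read 7.35, 6.83, 7.30 and 7.18 in WT and 7.69, 7.83, 7.80 and 7.52 in KO. Its groups were apart, with WT 2 low, at 0.54 ± 0.14, adjusted p = 0.027. Prpf31, which holds the U4/U6 particle to U5, was higher by 0.52 ± 0.14, adjusted p = 0.0271, with no call under the replicate block (adjusted p = 0.0533; 0.0206 to 0.584 over the alternatives).

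Among these PRPF calls, Prpf38a was lost without any 1 of WT 2, WT 3, KO 1, KO 3 and KO 4 (0.75 to 0.91), and Prpf18 without any 1 of WT 2, WT 3, WT 4, KO 1, KO 3 and KO 4 (0.56 to 0.63). Prpf8 lost its call without any 1 of WT 4, KO 1, KO 2 and KO 3 (0.50 to 0.55), and Prpf31 without any 1 of WT 2, WT 4, KO 1, KO 2 and KO 4 (0.43 to 0.53). The family count of 8 was 5 without WT 2, WT 4, KO 3 or KO 4 and 4 without KO 1. After quantile renormalization Prpf38a (0.56), Prpf39 (0.41), Prpf18 (0.22), Prpf40b (0.22), Prpf8 (0.25) and Prpf31 (0.13) kept their sign and lost their call. Of the 4 not called, the kinase Prpf4b read 6.57, 5.90, 6.29 and 6.48 in WT and 6.66, 6.68, 6.64 and 6.80 in KO. The ubiquitin ligase Prpf19 read 6.48, 5.52, 6.16 and 6.24 in WT and 6.63, 6.28, 6.49 and 6.55 in KO. In Prpf19 the groups overlapped and in Prpf4b WT 1 lay just below KO; they changed by 0.38 ± 0.15, adjusted p = 0.0961 and by 0.39 ± 0.20, adjusted p = 0.168; Prpf4b passed without WT 1 (0.47, adjusted p = 0.0488, limma; 0.0488 to 0.969 over the alternatives). The U4/U6 proteins Prpf4 and Prpf3 changed by 0.45 ± 0.19, adjusted p = 0.109 and by 0.18 ± 0.16, adjusted p = 0.395.

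**Figure D2:**
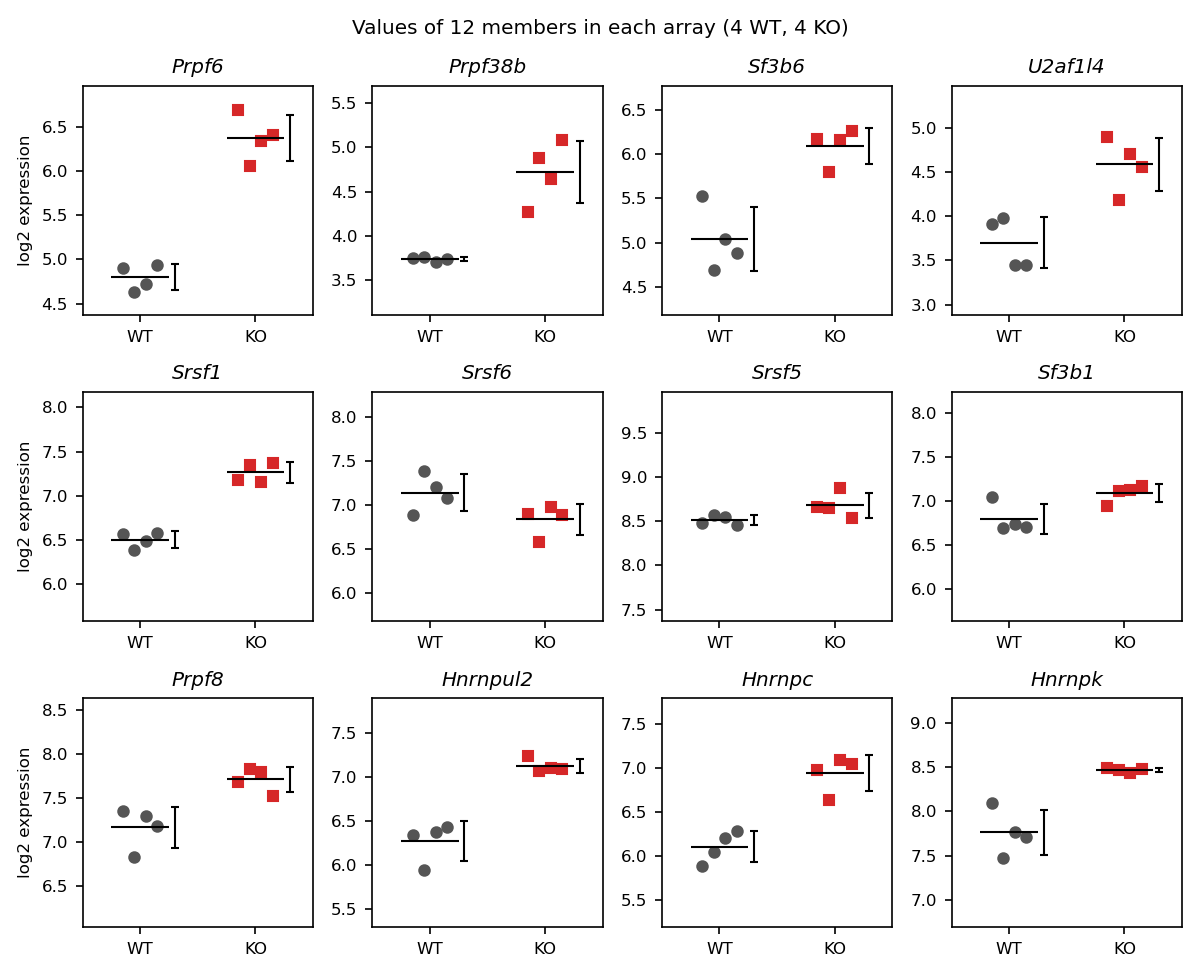
Log2 expression of 12 of the genes in each array, with the group mean as a line and ± SD as a bar (n = 4 per group); each panel spans the same height in log2 units. In Prpf6 the KO arrays lie at 6.06 to 6.70 and the WT arrays at 4.63 to 4.94, while in Srsf6, Srsf5 and Sf3b1 the groups overlap.

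Of the 10 SR proteins 2 passed, and the median change was 0.23 as deposited, -0.05 after quantile renormalization and -0.07 after cyclic loess. Srsf1, the founding member of the family, read 6.56, 6.38, 6.48 and 6.58 in WT and 7.18, 7.35, 7.15 and 7.37 in KO. Its KO arrays were all above WT with little spread, for a change of 0.76 ± 0.11, adjusted p = 0.0033 (limma); it kept its call after quantile renormalization (0.42, adjusted p = 0.0488) and lost it after cyclic loess (0.38, adjusted p = 0.0734; 0.00206 to 0.0734 over the alternatives). Srsf9, a short SR protein, read 4.91, 5.10, 4.85 and 5.05 in WT and 5.34, 5.35, 5.37 and 5.47 in KO. The groups were apart by a small distance, at 0.40 ± 0.11, adjusted p = 0.0297. This call was lost with the replicate block (adjusted p = 0.0549; 0.0152 to 0.985 over the alternatives), without any 1 of WT 3, KO 1, KO 2, KO 3 and KO 4 (0.36 to 0.42) and with a trend and robust variances, and the sign turned after quantile renormalization (-0.03). Without any 1 of those arrays the family count was 1.

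Srsf3, the smallest member of the family, read 4.82, 4.71, 4.58 and 5.18 in WT and 4.90, 5.33, 5.36 and 5.34 in KO. WT 4 lay above KO 1, and the change of 0.41 ± 0.16 did not pass (limma adjusted p = 0.0965). Srsf5 read 8.48, 8.57, 8.55 and 8.45 in WT and 8.67, 8.65, 8.88 and 8.54 in KO, and Srsf2, long used as a marker of nuclear speckles, read 7.55, 7.39, 7.69 and 7.69 in WT and 7.67, 7.87, 7.62 and 7.97 in KO. The groups overlapped in both (0.17 ± 0.11, adjusted p = 0.282, and 0.20 ± 0.13, adjusted p = 0.262). Srsf10, which turns into a general repressor when dephosphorylated, changed by 0.66 ± 0.24, adjusted p = 0.0773; its WT values spread from 3.17 to 4.24. It passed with the replicate block (adjusted p = 0.0295; 0.0295 to 0.376 over the alternatives) and without WT 1 (0.78) or WT 4 (0.84). Srsf11 changed by 0.25 ± 0.13, adjusted p = 0.181 and Srsf4 by 0.03 ± 0.13, adjusted p = 0.858.

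Srsf6, given in full after its values were seen, was the SR protein whose change ran lowest. It read 6.89, 7.38, 7.21 and 7.08 in WT and 6.90, 6.58, 6.98 and 6.89 in KO, with WT 1 level with 2 of the KO arrays and the other controls above all of KO. The difference of -0.30 ± 0.14 did not pass (limma adjusted p = 0.146); it was -0.62 after quantile renormalization (adjusted p = 0.0507) and -0.68 after cyclic loess (adjusted p = 0.0455; 0.0455 to 0.318 over the alternatives), where it was called lower. Srsf12, which read at most 1.86 on any array, changed by -0.23 ± 0.14, adjusted p = 0.239. No test of the difference between SR proteins and the other families was made.

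Of the 18 hnRNPs, 12 rose and all 18 changes were above 0, from 0.14 to 0.85; 14 of 18 were above 0 after quantile renormalization and 14 after cyclic loess. Hnrnpul2, which carries a DNA-binding SAP domain as Hnrnpu does, read 6.34, 5.94, 6.37 and 6.44 in WT and 7.24, 7.07, 7.10 and 7.08 in KO. The KO arrays were tightly placed above WT, and the change was 0.85 ± 0.13, adjusted p = 0.00416 (limma), 0.49 after quantile renormalization and 0.46 after cyclic loess, called each time. Hnrnpc, which binds uridine tracts and stays in the nucleus, read 5.89, 6.05, 6.20 and 6.28 in WT and 6.98, 6.64, 7.09 and 7.04 in KO. KO 2 was the lowest KO array and still above all controls, for 0.83 ± 0.14, adjusted p = 0.00541.

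Hnrnpf, a binder of G-runs, read 6.02, 5.95, 5.74 and 6.04 in WT and 6.64, 6.91, 6.51 and 6.85 in KO, the groups being apart at 0.79 ± 0.13, adjusted p = 0.00504 (limma). Hnrnpul1, the paralogue of Hnrnpul2, read 6.91, 6.44, 6.90 and 6.69 in WT and 7.47, 7.52, 7.73 and 7.15 in KO. Hnrnph2, another G-run binder, read 5.02, 4.81, 4.78 and 4.44 in WT and 5.17, 5.44, 5.38 and 5.92 in KO. KO was above WT in both, by 0.74 ± 0.16, adjusted p = 0.0134 and by 0.71 ± 0.18, adjusted p = 0.0244, with KO 4 lowest in the first and highest in the second. Hnrnpk, a KH-domain protein that binds C-rich RNA, read 8.09, 7.48, 7.77 and 7.71 in WT and 8.49, 8.47, 8.44 and 8.48 in KO. Its KO arrays were nearly level, above a wider WT group, and the change was 0.71 ± 0.14, adjusted p = 0.00903, 0.47 and 0.42 after the rescalings and called in both.

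Hnrnpab, a binder of single-stranded nucleic acids, read 8.66, 8.16, 8.77 and 8.33 in WT and 9.09, 9.21, 8.87 and 9.10 in KO, with WT 2 and WT 4 low and a change of 0.59 ± 0.16, adjusted p = 0.0275 (limma). The remaining called hnRNPs were Hnrnpr (0.64 ± 0.18), the G-run binder Hnrnph1 (0.63 ± 0.11), the scaffold attachment factor Hnrnpu (0.60 ± 0.12), Hnrnpm (0.55 ± 0.12) and the transport factor Hnrnpa2b1 (0.51 ± 0.13). Their KO and WT arrays did not overlap, and their adjusted p ran from 0.00675 for Hnrnph1 to 0.0311 for Hnrnpr. Hnrnph2 lost its call without WT 3, WT 4 or KO 4 (0.56 to 0.72), Hnrnpr without any 1 KO array (0.59 to 0.68), Hnrnpab without any 1 of WT 2, WT 4, KO 1, KO 2 and KO 4 (0.48 to 0.58) and Hnrnpa2b1 without WT 2, WT 3, KO 2 or KO 4 (0.44 to 0.50). After quantile renormalization all 12 kept their sign and 2 their call, Hnrnpul2 and Hnrnpk. The count of 12 was 8 without KO 4, its lowest with 1 array left out.

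Of the 6 hnRNPs not called, Hnrnpd, which binds AU-rich elements, read 7.31, 6.79, 7.17 and 7.26 in WT and 7.67, 7.87, 7.28 and 7.29 in KO. Hnrnpl, a binder of CA repeats, read 6.89, 6.85, 6.90 and 6.60 in WT and 7.15, 6.96, 7.11 and 6.91 in KO. KO 3 and KO 4 overlapped WT in Hnrnpd, and in Hnrnpl the lowest KO array lay just above the highest control. Neither passed (0.39 ± 0.18, adjusted p = 0.125, and 0.22 ± 0.12, adjusted p = 0.194, limma). Hnrnpll (0.44 ± 0.20), Hnrnpa3 (0.32 ± 0.19), Hnrnpa0 (0.30 ± 0.22) and Hnrnpdl (0.14 ± 0.12) had adjusted p between 0.128 and 0.412.

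Rows of 1 gene did not always move alike. Of the 52 genes 11 had several rows, and the row of highest mean was used. Hnrnpf had 5 rows. Of these, 4 were higher in KO, by 0.78 to 1.13, and 1 of the 4 was dim, at 2.75 in WT and 3.53 in KO. The other row, also dim, was lower, at 3.14 in WT and 2.25 in KO. Its change was -0.90 ± 0.15 (adjusted p = 0.00606 over all named rows, limma). The second row of Hnrnpk, at 5.89 in WT and 5.82 in KO, changed by -0.07 ± 0.10, and with the mean of its 3 rows the call of Hnrnpk was lost (0.21). The second row of Hnrnpu changed by 0.39 ± 0.19 (adjusted p = 0.158). Where the probes of these rows lie is not stated in the sources used here, and hnRNP genes often have pseudogene copies whose transcripts could share probes.

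Many genes of middle level were higher in KO, and the splicing genes lie at such levels. Of all genes with a mean level of 4 to 5, 36.6% were called higher, with 39.7% at 5 to 6, 33.1% at 6 to 8, 22% at 8 or more and 6.11% under 4; the shares called lower were 3.36%, 3.14%, 5.43%, 14.2% and 8.1%. The splicing genes called higher were 8 of 15 at 4 to 5, 7 of 9 at 5 to 6, 10 of 21 at 6 to 8, 3 of 4 at 8 or more and 0 of 3 below. Giving each gene the share called in its own level band yields 32.8%, against the 53.8% (28 of 52) observed. By family the same comparison was 35.5% against 33.3% for U2AF, 34.2% against 55.6% for SF3A and SF3B, 33.2% against 66.7% for PRPF, 31.3% against 20% for SR proteins and 32.4% against 66.7% for hnRNPs. These shares are descriptions, and whether a family differs from genes of its level was not tested.

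**Figure D3:**
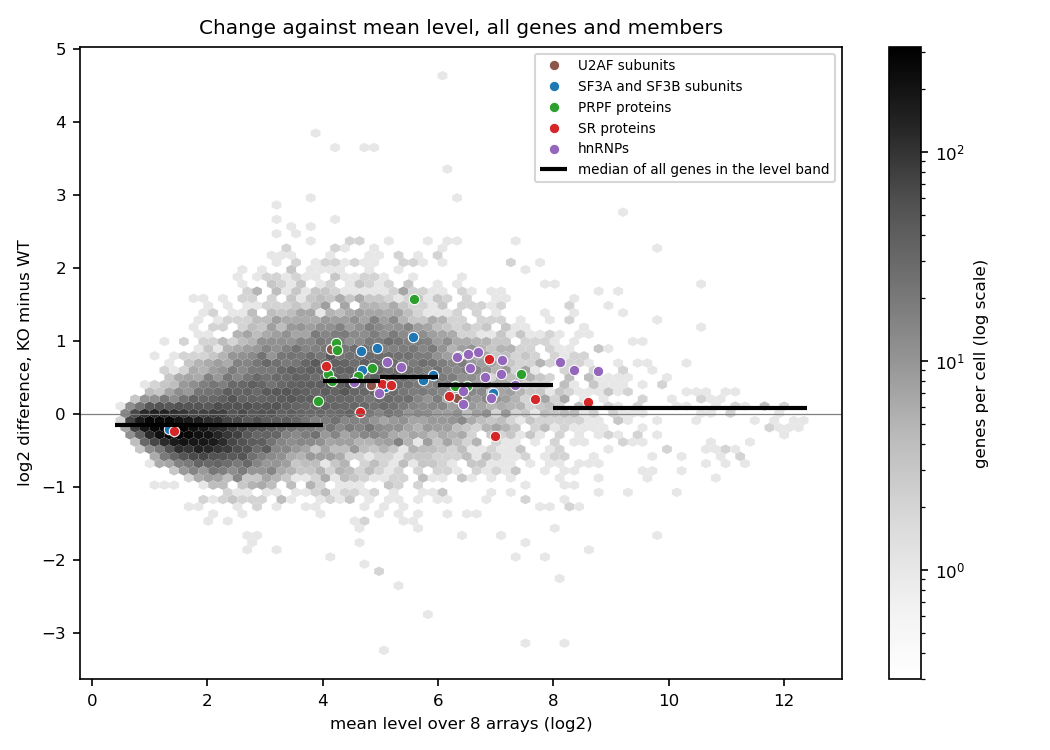
Log2 difference KO minus WT against mean level for all 22180 genes (grey cells, darker where more genes lie) and for the 52 splicing genes by family; black lines give the median of all genes in 5 level bands. The medians are 0.45 at 4 to 5, 0.50 at 5 to 6 and 0.39 at 6 to 8, and on these values, as deposited, more hnRNPs lie above the line than below it, and more SR proteins below it.

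The KO arrays had the wider spread over the tested genes, with an interquartile range of 2.97 ± 0.07 log2 units against 2.32 ± 0.16 in WT (SD, n = 4). Its part in the calls was not tested beyond the rescalings. After quantile renormalization the median change of the 52 was 0.14, of hnRNPs 0.25, PRPF proteins 0.22, SF3A and SF3B subunits 0.12, U2AF subunits 0.0045 and SR proteins -0.05. The 6 still called higher were Prpf6, Prpf38b, Sf3b6, Srsf1, Hnrnpk and Hnrnpul2. They make 11.5%, beside a level-band share of 10.5%, so the count called higher lay near its background. The level-band share called lower was 11.1%, against 0 of the 52, and the level-band median change was 0.037, against 0.14. Whether these differ was not tested. Under cyclic loess the level-band shares were 11.8% higher and 12.5% lower, against 9.62% (5) and 1.92% (1) of the 52. The level-band median change was 0.011, against 0.15. These differences were not tested either. Cyclic loess called Srsf6 lower in place of Srsf1 higher and otherwise the same genes. Of the 28 genes called higher as deposited, 27 kept a positive change after quantile renormalization, and 28 after cyclic loess. Of the 24 others, 16 and 17 were then negative. Median centring gave 28 higher and 0 lower, with a median of 0.62, beside 16.4% and 3.57% of all genes.

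**Figure D4:**
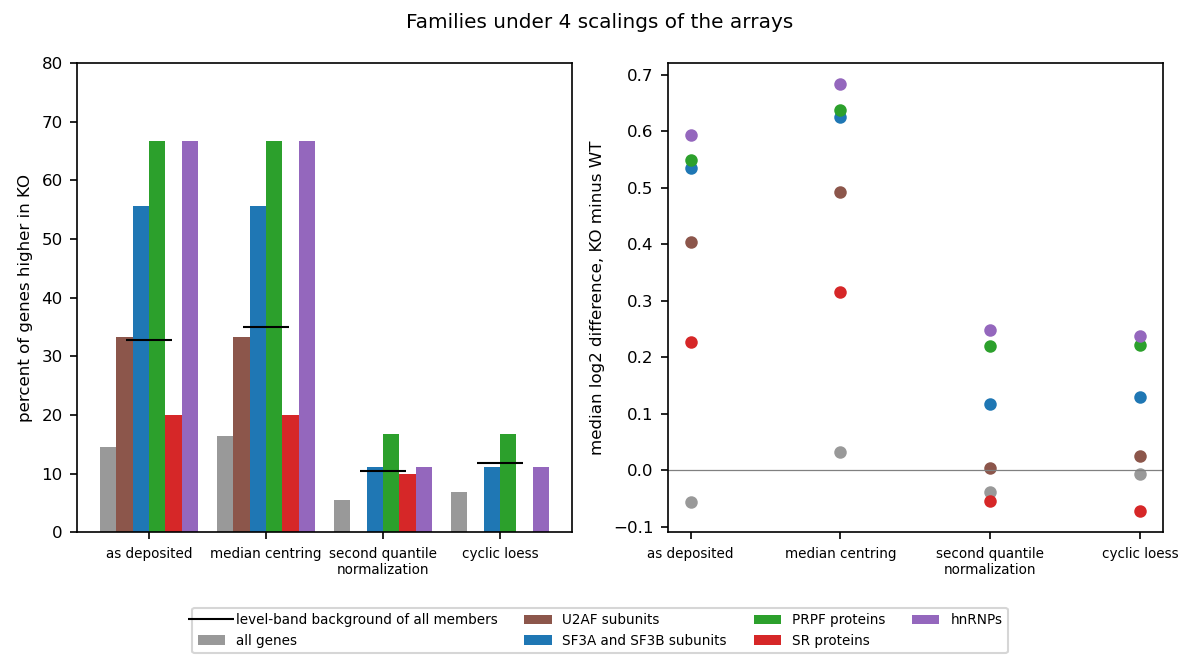
Left, the percent of genes called higher in KO for all genes and for each family under 4 scalings of the arrays, with a black dash for the level-band share of the 52 genes; right, the median log2 difference of each set. The hnRNPs fall from 66.7% to 11.1% under both quantile renormalization and cyclic loess, and the SR median falls below 0.

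The pancreas holds several cell types, and in bulk RNA fewer cells of a type and less RNA per cell cannot be told apart. Acinar markers were abundant in every array: the mean level of 10 markers was 10.18 to 10.32 in WT and 9.50 to 9.66 in KO, with 5 of 10 called lower and 0 higher. Among all genes 6.99% were called lower, and 14.2% of those with a mean level of 8 or more, where most of these markers lie. The level-band share called higher for the acinar markers is 24.9%. All 11 macrophage markers had positive changes (median 1.55) and 5 were called higher, beside a band share of 33%; the 3 of smallest p were Fcgr1 (1.92 ± 0.27), Adgre1 (2.29 ± 0.38) and C1qc (1.23 ± 0.26). The macrophage markers' mean level ran from 3.72 to 5.44 in WT and from 5.15 to 6.68 in KO. The stellate and fibroblast list had 9 of 11 positive changes (median 1.07) and 1 called higher (band share 26.8%), with a mean level of 4.52 to 5.85 in WT and 4.99 to 6.84 in KO. Of the ductal markers 2 of 7 were higher (band share 18%) and 1 lower. The beta list had 2 of 7 lower and the T and NK list 1 of 8 lower, beside 6.99% of all genes. The other islet, endothelial, neutrophil, B and plasma, mast and adipocyte lists had 0 calls (limma), with unadjusted p under 0.05 in 4 of their 42 genes. These log2 values have no zero, so no marker could be placed at one. The part of these cell types in the splicing gene changes was not tested.

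Other genes of the pathway were mostly higher as well, as deposited. Of 159 further splicing genes on 10 lists, 75 (47.2%) were higher and 1 lower, with a median change of 0.51, beside a level-band share of 28.5% and 14.6% of all genes higher. After quantile renormalization 16 (10.1%) were higher and 3 lower, beside 5.54% and 5.15% of all genes. After cyclic loess 20 (12.6%) were higher and 4 lower, beside 6.86% and 5.31% of all genes. The level-band share of the 159 was not worked out after these rescalings. For the 52 genes the level-band share called higher was 10.5% and 11.8%, but their median level was 5.83, against 4.79 in the 159. Those shares are therefore no background for the 159. Whether the 159 differ from genes of like level after rescaling was not tested. Each list's count below stands beside the level-band share of its own members. The lists were drawn up with earlier results of these data known. In the Sm and LSm rings, which encircle the snRNAs, 7 of 15 rose (level-band share 24.6%), led by Snrpd1, an Sm core protein, from 3.16 ± 0.37 in WT to 5.39 ± 0.19 in KO (SD, n = 4), a change of 2.23 ± 0.19 that was called in each alternative. Lsm10, which belongs to the ring of the histone-processing U7 particle, rose by 1.26 ± 0.18, and Lsm7, of the ring that binds U6, by 0.60 ± 0.14. Of the other U1 and U2 proteins 8 of 16 rose (35.8%), the helicase Ddx42 by 1.27 ± 0.18, the disassembly helicase Dhx15 by 0.62 ± 0.11 and the prespliceosome helicase Ddx46 by 0.69 ± 0.14.

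Among other tri-snRNP proteins 8 of 11 rose (level-band share 34.4%). They included Usp39 (1.07 ± 0.15), the GTPase Eftud2 (1.29 ± 0.21) and the helicase Snrnp200 that unwinds U4 from U6 (0.93 ± 0.18), partners of Prpf6 and Prpf8 in the particle. Of the NTC and catalytic step proteins 15 of 23 rose (30.3%), among them the isomerase Cwc27 (0.92 ± 0.14), the helicase Aqr (0.70 ± 0.11) and the release helicase Dhx8 (0.996 ± 0.18). In snRNP assembly 7 of 14 rose (21.8%), with the arginine methyltransferase Prmt5 at 1.37 ± 0.21, the survival motor neuron gene Smn1 at 0.87 ± 0.16 and the cap hypermethylase Tgs1 at 1.15 ± 0.22. Of these genes Ddx42, Usp39, Eftud2, Cwc27, Dhx8, Lsm10 and Prmt5 were also called in each alternative run.

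SR-related proteins rose in 8 of 16 cases (level-band share 34.3%), Rnps1 of the exon junction by 0.75 ± 0.13, its partner Acin1 by 0.51 ± 0.12 and Srek1 by 0.51 ± 0.13. Of the kinases that phosphorylate SR proteins 1 of 6 rose (33%), Srpk2 by 0.68 ± 0.21, called in 7 of 18 alternatives. Of other splicing regulators 17 of 40 rose (27.6%) and 1 fell. Khdrbs1, the signalling-linked protein Sam68, rose by 1.15 ± 0.13, Pspc1, a paraspeckle protein, by 1.07 ± 0.16 and Rbm39, which resembles U2af2, by 0.71 ± 0.13. Khdrbs1 and Pspc1 were also called in each alternative run. Esrp2, an epithelial splicing regulator, was lower, at 5.29 ± 0.28 in WT and 4.48 ± 0.29 in KO (SD, n = 4), a change of -0.80 ± 0.18 (limma adjusted p = 0.0161), with no overlap between groups. It was the 1 gene of the 10 lists called lower as deposited. Its paralogue Esrp1 was higher, at 5.35 ± 0.52 in WT and 6.63 ± 0.29 in KO (SD, n = 4), a change of 1.27 ± 0.25 (limma adjusted p = 0.00935), also with no overlap. Both were named after their values were seen, and neither was followed through the alternatives. In the exon junction and nonsense-mediated decay list 3 of 9 rose (23.7%), Smg1, Smg5 and Smg6, by 0.43 to 0.59. In the minor spliceosome list, which serves a rare class of introns, 1 of 9 rose (16.2%), Rnpc3 by 0.70 ± 0.14. The calls of Lsm7, Dhx15, Ddx46, Aqr, Smn1, Rnps1, Acin1, Srek1, Srpk2, Smg1, Smg5, Smg6 and Rnpc3 were lost under both quantile renormalization and cyclic loess, and that of Rbm39 under cyclic loess; after quantile renormalization Acin1 changed by 0.09 and Srek1 by 0.07.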

How the data were processed

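The deposited values formed a table of 41345 rows with a column for each of the 8 arrays. The log2 values of the authors came from RMA through the package oligo, per the submitters' processing notes, which give no versions; the log base was read from the range of the values. RMA equalizes array distributions over all probes, and the summarized KO values still spread more widely. Columns were matched to samples by name.

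Rows with 1 symbol in the platform annotation (23521) were kept, with the row of highest mean per gene. Genotype was the only factor in limma 3.58.1 (R 4.3.3), on all 8 arrays, with Benjamini-Hochberg adjustment over 22180 genes, a threshold of 0.05 and no filter. Alternatives were 3 rescalings (quantiles, cyclic loess, median), a trend with robust variances, array weights, a minimum mean level of 4, the mean of a gene's rows, a replicate block, sex as a term, males only, and each array left out. Same-numbered arrays deviated together (r = 0.26, 0.17, 0.11 and 0.14), each over the limit of 0.1, so the replicate number was also fitted as a block, as an alternative; of differently numbered arrays, WT 4 with KO 2 (0.12) and WT 3 with KO 1 (0.11) passed it too. No batch is given. All 52 members were named; of each splicing list, up to 3 called genes of smallest p, and Esrp1, Esrp2 and 3 macrophage genes after their values were seen. The limma call was tried on simulated data with shifts planted in some genes. That simulation gave both groups the same spread and did not cover the rescalings, the level bands or the promoter counts. Members and lists were chosen with earlier results of these data known.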

Additional observations from a re-analysis of the deposited data

Results flagged for a closer look

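In 9 of the 104 groups of 4 arrays (52 genes, WT and KO) the highest or lowest array lay far from the other 3 for the range of its group; chance gives about 1 in 20. Among subunits of U2AF and SF3B, U2af1 read 6.71 in KO 3 against 6.34 to 6.39 in the other KO arrays, and Sf3b1 read 7.05 in WT 1 against 6.70 to 6.75 in the other controls. Prpf18 read 4.997 in WT 1 against 4.33 to 4.44. Srsf10 read 4.73 in KO 4 against 4.24 to 4.29, and Srsf3 read 4.90 in KO 1 against 5.33 to 5.36. Among the hnRNPs, Hnrnpul2 read 7.24 in KO 1 against 7.07 to 7.10, and Hnrnpr read 4.51 in WT 2 against 5.19 to 5.27. Hnrnpll read 4.97 in KO 4 against 4.67 to 4.70, and Hnrnpa0 read 5.24 in KO 3 against 5.08 to 5.09. Removing the array in question gave Sf3b1 a call. It left Prpf18, Hnrnpul2 and Hnrnpr called, and U2af1, Srsf10, Srsf3, Hnrnpll and Hnrnpa0 not called.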

How the results depend on the processing

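Over all genes 3241 were higher and 1551 lower. Quantile renormalization gave 1228 and 1142, cyclic loess 1521 and 1178, median centring 3635 and 791, a minimum mean level of 4 gave 2543 and 291 among 6264 genes, and males only 770 and 145. The 28 splicing genes called higher became 6, 5 (with Srsf6, 1 lower) and 7 under quantile renormalization, cyclic loess and males only. By family, U2AF gave 0 under each of these and with the mean of a gene's rows; SF3A and SF3B gave 1 under each, and 3 with the mean of rows and with sex as a term. PRPF proteins gave 2 under each. SR proteins gave 1, 0 (with 1 lower) and 1, and 1 with a trend and robust variances, their median being -0.0546 and -0.0722 under the first 2. The hnRNPs gave 2, 2 and 3. Srsf9 turned to -0.0300 under quantile renormalization. With 1 array left out, 17 (without KO 4) to 30 (without WT 1) were higher: U2AF 1 to 1, SF3A and SF3B 2 to 5, PRPF 4 to 9, SR 1 to 3 and hnRNPs 8 to 12. Over all genes 1781 to 3713 were then higher and 459 to 2357 lower. The replicate block called 28 splicing genes, 26 of them shared, losing Prpf31 and Srsf9 and gaining Sf3a2 and Srsf10, with 3698 higher and 1348 lower over all genes. Of 104 changes of single splicing genes under the 2 normalizations, 58 kept their side of the threshold, 44 lost a call and 1 gained one. In 1 more, Srsf9 under quantile renormalization, the call was lost and the sign turned. Of 829 changes under the other alternatives 733 kept their side, 87 lost a call and 9 gained one. Genes not called as deposited whose sign turned are counted among those that kept their side. Why the calls moved was not tested. The number of arrays and the unknown background limit what dim rows show.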
